A study of Homo sapiens with 4 samples.

Results

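The aminoacyl-tRNA synthetases are the enzymes that attach amino acids to their tRNAs. Their members were taken from a list of family symbols, each matched to the gene symbol of non-control probes of the array, which gave 36 genes of the 18001 genes named on tested probes. TARSL2, a further threonyl-tRNA synthetase gene, was not on that list and is counted with the charging partners. Of these, 20 encode enzymes of the cytosol and 16 encode enzymes of the mitochondrion, and together they are read by 40 of the 34127 non-control probes. The cells were THP1, a human monoblastic AML cell line that carries the MLL-AF9 fusion gene and grows as a single established line. They were transfected once with 30 nM of a synthetic precursor of miR-511 or of negative control #1, the control treatment, kept in DMEM/Ham's F12 with little serum, and harvested on day 2. There were 2 independent experiments, and each gave 1 single-dye Agilent array of each treatment, so that both treatments and both experiments hold 2 arrays. All arrays share the cell line, the dose, the medium and 1 slide.

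Each synthetase recognises 1 amino acid and the tRNAs that belong to it, and hands the charged tRNA to an elongation factor, which carries it to the ribosome. Cells keep separate enzymes for cytosolic and for mitochondrial translation, nearly all of them encoded in the nucleus by different genes. Exceptions are GARS and KARS, which each serve both compartments from 1 gene and are counted with the cytosolic enzymes here. EPRS departs from the rule of 1 amino acid, as a fusion that charges glutamate as well as proline. There are 2 structurally unrelated classes of the enzymes, and 8 of the cytosolic genes measured here (DARS, EPRS, IARS, KARS, LARS, MARS, QARS and RARS) encode subunits of the multi-synthetase complex. In many cell types the cytosolic genes are known targets of ATF4, the transcription factor of the amino acid response.

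The sequence supplied by the treatment is shown first, as RefSeq gives it (GRCh38.p14, chr10:17845122-17845142, plus strand), with the seed, bases 2 to 8, in capitals.
hsa-miR-511-5p: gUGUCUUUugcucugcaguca
The DNA letters complementary to this seed are AAAGACA. They occurred in 1 of the 40 synthetase probes, a probe of GARS, and in 0.97% of all non-control probes. The stretch of that probe is shown with the match in capitals.
GARS probe: caAAAGACAtgatcaatgt
Probes are 60 bases long and cover only a small part of a transcript, so a probe without these letters says nothing about the rest of its transcript.

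Promoters were read because of the known role of ATF4 at these genes. RefSeq promoter windows of 300 bases, 250 before and 50 after the gene start, were at hand for 30 of the 36 genes (16 cytosolic and 14 mitochondrial). They were searched on both strands for 5 motifs. TGATGCAA, the core of a C/EBP-ATF response element, was found in 6 windows (20%), all 6 of them of cytosolic genes, and in 0.923% of 27305 promoters. The looser form TGATGNAA, which contains it, was found in 7 windows (23.3%) against 3.67% of all. CCGGAAG, an ETS core, was in 14 windows (46.7%), 8 cytosolic and 6 mitochondrial, against 2913 of all 27305 promoters. The E-box CACGTG was in 4 windows (13.3%) against 7.43%, and the palindromic NRF1 core motif was in 1 window (3.33%) against 1.36%. The windows with TGATGCAA were picked for display after these counts were seen, and a match is a description, not a site of binding. The motif is in capitals, as it reads on the strand of the gene in GRCh38.p14.
AARS, chr16:70289675-70289704, minus strand: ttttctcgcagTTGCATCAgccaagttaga
CARS, chr11:3057407-3057436, minus strand: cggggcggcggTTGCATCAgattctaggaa
IARS, chr9:92293692-92293721, minus strand: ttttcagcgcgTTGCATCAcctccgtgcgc
MARS, chr12:57488053-57488082, plus strand: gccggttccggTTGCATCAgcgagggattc
NARS, chr18:57621804-57621833, minus strand: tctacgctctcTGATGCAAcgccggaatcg
TARS, chr5:33440956-33440985, plus strand: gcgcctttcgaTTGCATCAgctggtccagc

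Values are log2 of the background-subtracted intensity after quantile normalization between arrays, and a difference of 1 on this scale is a doubling. All 40 synthetase probes were well above background on all 4 arrays, and all were tested, together with 22638 probes in all. Levels of different probes are not comparable, and each gene is compared only with itself across arrays. The 10 monocytic marker genes tested, among them MPO, ELANE, CD33 and SPI1, were all well above background on all 4 arrays, whereas CD3E, a T cell gene, lay between 3.01 and 4.04. Of 12 markers of other cell types 7 were tested, 6 of them were well above background on all 4 arrays, and MS4A1, EPCAM, COL1A1, ALB and GFAP did not pass the filter on dim probes. The number of arrays, 4, limits the precision of every comparison. With 2 arrays against 2, an exact permutation test of a single value cannot give a p below 0.333.

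**Figure D1:**
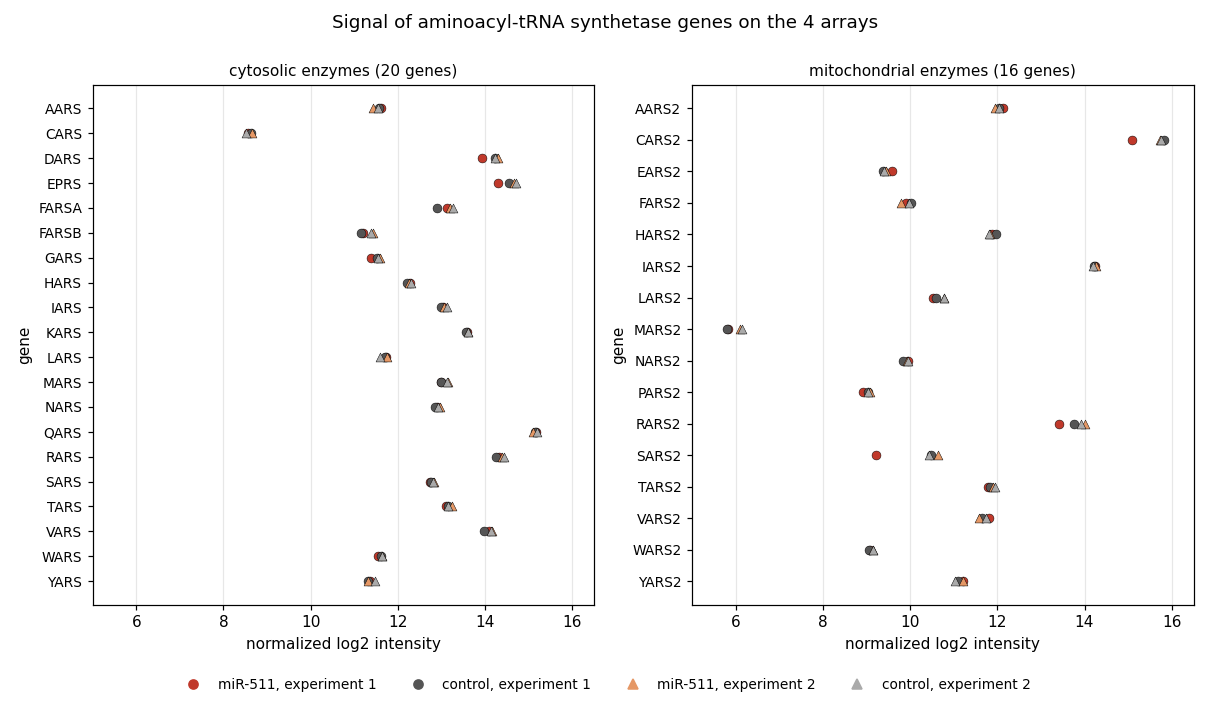
Normalized log2 intensity (horizontal axis) of the 36 synthetase genes on the 4 arrays, cytosolic genes on the left and mitochondrial genes on the right, 1 row per gene in alphabetical order and 1 point per array, with no error bars. Positions of different genes cannot be compared, since they come from different probes; for most genes the 4 points nearly coincide, and SARS2 has 1 point, the miR-511 array of experiment 1 at 9.21, far to the left of the other 3.

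The first comparison asked whether transcripts of the synthetases differed between miR-511 mimic and control mimic. No gene of the family passed: 0 of 40 probes had an unadjusted p below 0.05 in limma's moderated test, against 2.20% of all tested probes, and the Benjamini-Hochberg adjusted p of limma was 1 for each of them, as 0% of all probes passed after adjustment. The cytosolic genes had a median log2 difference of 0.004, with 10 of 20 above 0 and a range from -0.14 for EPRS to 0.08 for LARS. The mitochondrial genes had a median of -0.02, with 7 of 16 above 0 and a range from -0.53 for SARS2 to 0.15 for YARS2. Over all tested probes the median was 0.01 and 53.7% lay above 0. The median size of the difference, without its sign, was 0.034 in the cytosolic and 0.043 in the mitochondrial genes, against 0.079 over all probes. In size, 2 of 36 genes (5.56%) exceeded 0.2, both of them mitochondrial (SARS2 and CARS2), against 17.8% of all probes. Array signal, which does not rank transcripts between probes, had a median of 11.87 over the 36 genes and of 8.73 over all tested probes. These sizes were not compared with those of probes of similar signal.

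The precision was read from the interval of each gene. The 95% interval of limma lay within -0.5 and 0.5 for 29 of the 36 genes, and its half-width had a median of 0.28. For DARS, EPRS, FARSA, CARS2, MARS2, RARS2 and SARS2 it reached further, so that a difference of that size lay within the interval. Both experiments gave a difference of the same sign in 11 of 36 genes (30.6%), against 51% of all probes. Among the cytosolic genes these were 5 of 20, and among the mitochondrial genes 6 of 16.

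Both miR-511 arrays lay above both control arrays at 4 of the 40 probes (10%), against 15.6% of all probes. YARS2, the mitochondrial tyrosyl-tRNA synthetase, had 11.22 and 11.21 with miR-511 mimic and 11.09 and 11.04 with control mimic in experiments 1 and 2, and its difference of 0.15 (SE 0.09) was the largest positive one in the family. EARS2, which charges mitochondrial tRNA with glutamate, had 9.59 and 9.45 against 9.38 and 9.39, a difference of 0.14 (SE 0.10). LARS, the cytosolic leucyl enzyme, had 11.72 and 11.75 against 11.71 and 11.60, and its arrays were apart in experiment 2 and nearly equal in experiment 1. IARS2, the mitochondrial isoleucyl enzyme, differed by 0.06 (SE 0.089).

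Both miR-511 arrays lay below both control arrays at 2 of the 40 probes (5%), those of CARS2 and FARS2, against 10.1% of all probes. FARS2, the single-chain mitochondrial phenylalanyl enzyme, had 9.90 and 9.80 with miR-511 mimic and 10.03 and 9.98 with control mimic, a difference of -0.16 (SE 0.097) that was similar in both experiments. The subunits of the cytosolic phenylalanyl enzyme, FARSA and FARSB, differed by 0.07 (SE 0.16) and 0.03 (SE 0.15).

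The negative differences of SARS2 and CARS2, the largest in the family, rested mainly on 1 array. Those of RARS2, EPRS and DARS, smaller than that of FARS2, did too. SARS2, the mitochondrial seryl enzyme, had 9.21 on the miR-511 array of experiment 1 and 10.64 on that of experiment 2, while the control arrays had 10.47 and 10.44. CARS2, the mitochondrial cysteinyl enzyme, had 15.08 and 15.74 with miR-511 mimic and 15.82 and 15.75 with control mimic. RARS2, the mitochondrial arginyl enzyme, had 13.41 and 14.00 against 13.76 and 13.91. In each of these genes the low value is that of the miR-511 array of experiment 1, and the other 3 arrays lie close together in SARS2 and CARS2 and less so in RARS2. The cytosolic genes EPRS and DARS had the same pattern with smaller gaps. EPRS had 14.30 and 14.67 with miR-511 mimic against 14.55 and 14.72, and DARS, the aspartyl enzyme of the complex, had 13.93 and 14.29 against 14.23 and 14.23.

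The miR-511 array of experiment 1 had 66.6% of spots well above background, against 68.2% to 70.7% on the others. Its median signal before normalization was 92.3, against 100.4 to 111.2, and it had the most spots marked as outliers, 301. Whether this bears on the low values was not tested. The same array lay more than 0.2 below the other 3 at 5 of the 40 synthetase probes, against 7.39% of all tested probes (the gap of 0.2 was chosen after the values were seen). Without it, the miR-511 minus control difference turned from -0.53 to 0.19 in SARS2, from -0.13 to 0.17 in RARS2, from -0.14 to 0.041 in EPRS and from -0.12 to 0.062 in DARS, and in CARS2 it went from -0.38 to -0.052. Without the miR-511 array of experiment 2, SARS2 differed by -1.24 and CARS2 by -0.70. That fit leaves only the miR-511 array with the low values, so no call is drawn from it. The direction in SARS2, RARS2 and DARS was therefore that of a single array. EPRS was lower with miR-511 mimic than with the control mimic of the same experiment in both, with differences of -0.25 and -0.04. The probes of SARS2 and CARS2 are shown by their first 30 bases, with the whole probe's position in hg19.
SARS2, chr19:39406024-39406083, minus strand: ttgctgcctcagagtcagtcactgaccctg
CARS2, chr13:111293778-111293837, minus strand: cttctcagggtcaaggctttatgttaaagc

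**Figure D2:**
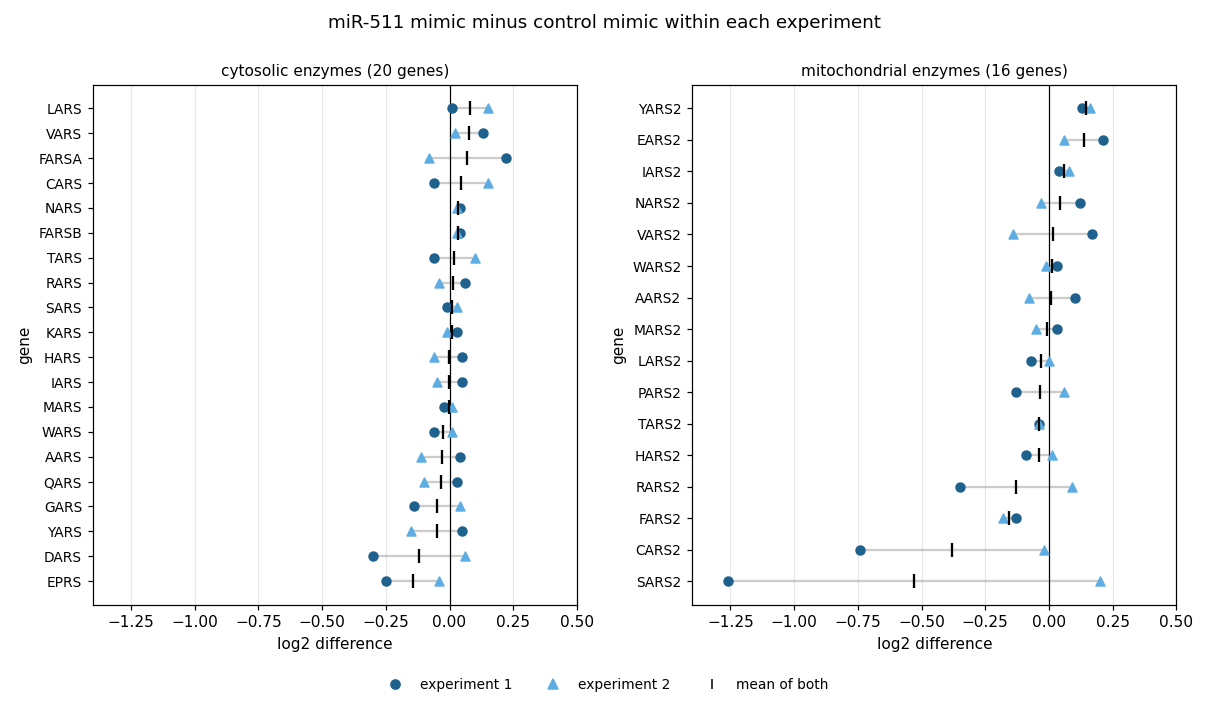
Log2 difference of miR-511 mimic minus control mimic (horizontal axis) in experiment 1 (dark circles) and experiment 2 (light triangles) for each of the 20 cytosolic (left) and 16 mitochondrial (right) synthetase genes, ordered by the mean of both (black ticks). Each point is 1 array minus 1 array, so there are no error bars; most genes lie close to 0, and for SARS2 experiment 1 gave -1.26 and experiment 2 gave 0.20.

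The remaining members differed little between the treatments. GARS, the glycyl enzyme of both compartments, had 11.38 and 11.59 with miR-511 mimic and 11.52 and 11.55 with control mimic. KARS, the lysyl enzyme of both compartments, had 13.59 and 13.62 against 13.56 and 13.62, and its 4 arrays spanned 0.06. WARS, the tryptophanyl enzyme that interferon induces, had 11.55 and 11.64 against 11.61 and 11.63, a difference of -0.02 (SE 0.093). In all 3 genes the arrays of the treatments overlapped. AARS, the alanyl enzyme, had 11.61 and 11.43 against 11.56 and 11.54, and its mitochondrial counterpart AARS2 had 12.13 and 11.95 against 12.03 and 12.03. HARS2, the mitochondrial histidyl enzyme, had 11.87 and 11.83 against 11.96 and 11.82. Among the other cytosolic genes (CARS, FARSA, HARS, IARS, MARS, NARS, QARS, RARS, TARS, VARS and YARS) the difference ran from -0.05 in YARS to 0.08 in VARS, and among the other mitochondrial genes (NARS2, PARS2, TARS2, VARS2 and WARS2) from -0.04 in TARS2 to 0.04 in NARS2. The 3 probes of IARS differed in sign, with -0.003 at the brightest and -0.14 and 0.07 at the others.

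Of 17 pairs of a cytosolic and a mitochondrial enzyme of the same amino acid, 12 had differences of opposite sign by treatment. The median gap was 0.11 on the log2 scale. The share for pairs of other genes was not computed, so the count is only a description. Several of the 12 had values near 0 in both enzymes, such as -0.03 (SE 0.11) in AARS and 0.01 (SE 0.11) in AARS2. EPRS and FARS2 each enter 2 of the 17 pairs, so that the pairs are not independent. The widest gaps were those of serine, where SARS had 0.01 and SARS2 -0.53, and of cysteine, where CARS had 0.04 and CARS2 -0.38. The subunits of the multi-synthetase complex had a median of -0.003, and the 12 cytosolic genes outside it one of 0.014. Class I and class II enzymes had medians of -0.003 and -0.002.

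The second comparison set experiment 2 against experiment 1, each with 1 array of either treatment. It uses the same 4 arrays as the first, so the comparisons are not independent. Experiments were separate transfections, and what differed between them is not given in the sources used here. In limma 4 of the 40 synthetase probes had an unadjusted p below 0.05 (10%), against 13.6% of all tested probes, and all 4 were higher in experiment 2, against 5.42% of all. None passed after Benjamini-Hochberg adjustment in limma, where 0% of all probes did. At the unadjusted threshold 4 of 40 passed. An ordinary t-test on averaged probes, not a criterion of the study, was run too. It called 6 of 40 unadjusted, against 11.3% of all probes, and 0 adjusted. In limma the share called in either direction was below that of all probes and the share called higher was above it. With treatment as a term 1 of 40 was called (MARS2), against 11.6% of all probes, and with an intensity trend 9 of 40, against 14.6%. The share of synthetase probes was above that of all probes with the trend and with the ordinary t-test. These counts are small, the 9 include 2 probes of MARS, and whether the shares differ was not tested. Without the miR-511 or the control array of experiment 2 fewer synthetase probes were called, and fewer of all tested probes too. Those fits leave 1 array in experiment 2, so no count is given.

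The called genes were MARS2, FARSB, LARS2 and, at 1 of its 2 probes, SARS. MARS2, the mitochondrial methionyl enzyme, had 5.82 and 5.79 with miR-511 and control mimic in experiment 1 and 6.10 and 6.15 in experiment 2, a difference of 0.32 (SE 0.069, adjusted p = 0.259 in limma). With normexp background correction it was 0.12 and did not pass. MARS2 had the lowest signal of the 36 genes. Its probe is printed 10 times on each array, and the SD among its spots was 0.0807 to 0.169. FARSB, the beta chain of the cytosolic phenylalanyl enzyme, had 11.19 and 11.15 in experiment 1 and 11.42 and 11.39 in experiment 2, a difference of 0.24 (SE 0.068, adjusted p = 0.315 in limma). In both genes the arrays of an experiment were nearly equal and the experiments did not overlap. LARS2, the mitochondrial leucyl enzyme, had 10.53 and 10.60 against 10.78 and 10.78, a difference of 0.21 (SE 0.07, adjusted p = 0.352 in limma). FARSB and LARS2 did not pass with treatment as a term or with any 1 of the 4 arrays left out, and MARS2 did not pass without the control array of experiment 2.

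SARS, the cytosolic seryl enzyme, gave different values at its probes. The brighter probe had 12.74 and 12.75 in experiment 1 and 12.84 and 12.81 in experiment 2, a difference of 0.08 (SE 0.066) that did not pass. The dimmer probe, annotated to a non-coding transcript variant, had 6.47 and 6.29 against 6.65 and 6.74, a difference of 0.31 (SE 0.098, adjusted p = 0.34 in limma). It did not pass with 75th percentile scaling (0.25), with normexp background correction (0.15), with treatment as a term or in the ordinary t-test. Both probes were higher in experiment 2. The first 30 bases of the called probes are shown with the position of the whole probe in hg19.
MARS2, chr2:198571975-198572034, plus strand: caggaaagttatacttgtattttcttaagt
FARSB, chr2:223489002-223489061, minus strand: atgcagctattgcttatggatataacaaca
LARS2, chr3:45590070-45590129, plus strand: ggactcataccattggcacattaggctaat
SARS, dimmer probe, chr1:109779432-109779491, plus strand: gaataatctccatttatctacacagaacaa

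By position of the arrays, the family leaned to experiment 2. Both arrays of experiment 2 lay above both arrays of experiment 1 at 23 of the 40 probes (57.5%), against 22.4% of all tested probes, and below both at 2 (5%), against 26.4% of all. This count was added after the values were seen. It was not compared with that of probes of similar signal, and IARS, MARS and SARS enter it with more than 1 probe each. The 2 probes that went the other way were those of AARS, with 11.61 and 11.56 in experiment 1 and 11.43 and 11.54 in experiment 2, and of HARS2, with 11.87 and 11.96 against 11.83 and 11.82. The differences were small: the median over the 36 genes was 0.074, against -0.009 over all tested probes. Of the cytosolic genes 16 of 20 lay above 0, with a median of 0.076, and 13 of them (65%) were higher in experiment 2 with either treatment, against 28.6% of all probes. Of the mitochondrial genes 9 of 16 lay above 0, with a median of 0.053, and 6 (37.5%) were higher with either treatment. Whether the compartments differed was not tested.

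Several of the larger differences between experiments came from the miR-511 array of experiment 1 described above. SARS2 was 1.43 higher in experiment 2 with miR-511 mimic and differed by -0.03 with control mimic, and CARS2 by 0.65 and -0.07. RARS2 differed by 0.59 and 0.15 in the same order, and DARS by 0.36 and 0.00. EPRS was higher in experiment 2 with both, by 0.37 and 0.17. None of these 5 passed the unadjusted threshold of limma. Without that array the median of the cytosolic genes was 0.067 and that of the mitochondrial genes 0.036, and 27 of the 40 probes had the remaining arrays in this order, against 37.3% of all. FARSA, the other chain of the phenylalanyl enzyme, went with the control arrays in place of the miR-511 arrays, and was higher in experiment 2 by 0.37 with control mimic and by 0.07 with miR-511 mimic.

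**Figure D3:**
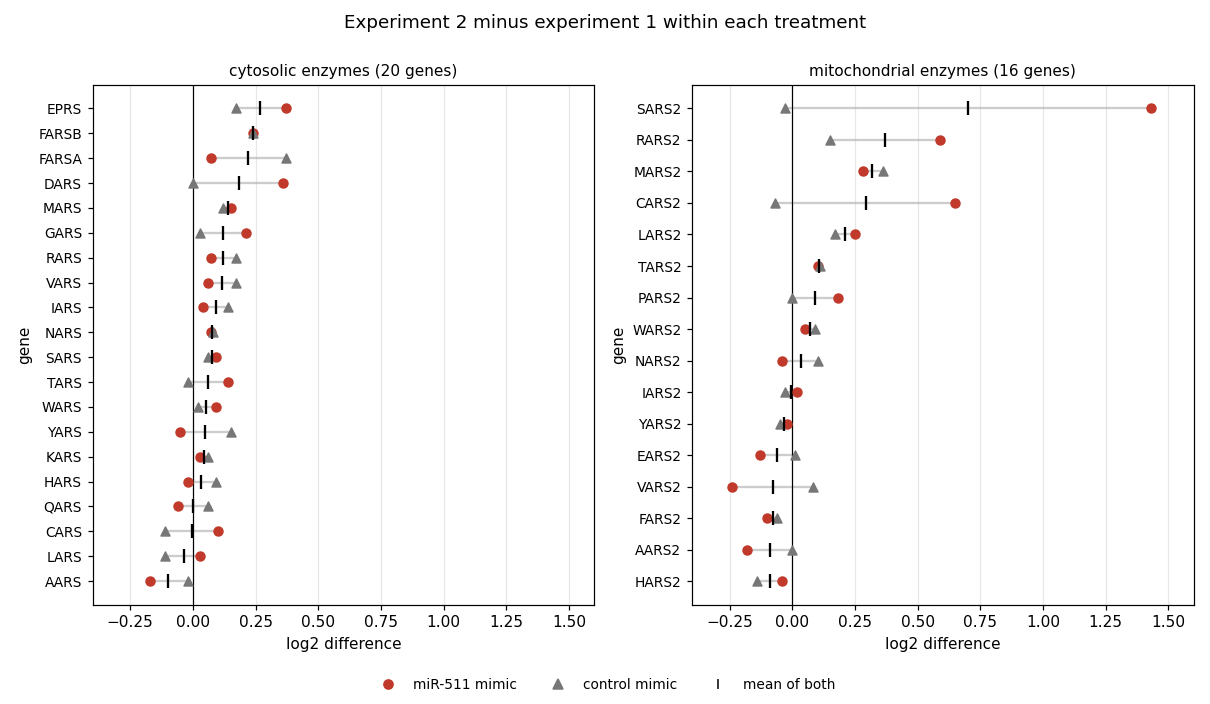
Log2 difference of experiment 2 minus experiment 1 (horizontal axis) with miR-511 mimic (red circles) and control mimic (grey triangles) for each of the 20 cytosolic (left) and 16 mitochondrial (right) synthetase genes, ordered by the mean of both (black ticks). Each point is 1 array minus 1 array, so there are no error bars; 16 of 20 cytosolic and 9 of 16 mitochondrial means lie to the right of 0.

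Among the multi-synthetase complex subunits the median difference between experiments was 0.106, with 6 of 8 above 0 and 6 higher with either treatment, and among the 12 other cytosolic genes it was 0.069, with 10 above 0. MARS, the cytosolic methionyl enzyme, was higher by 0.14 at its brighter and by 0.25 at its dimmer probe. IARS, the isoleucyl enzyme, was higher at all 3 probes, by 0.09, 0.22 and 0.14. GARS and KARS were higher by 0.12 (SE 0.083) and 0.04 (SE 0.066), and WARS by 0.05 (SE 0.069). Of the pairs for 1 amino acid, 9 of 17 had opposite signs between experiments. In the methionine and arginine pairs both enzymes were higher in experiment 2, by 0.14 in MARS and 0.32 in MARS2 and by 0.12 in RARS and 0.37 in RARS2, and in the alanine pair both were lower, by values of -0.10 and -0.09. LARS had -0.04 where LARS2 had 0.21. The 6 genes with TGATGCAA in the promoter window spanned -0.10 (AARS) to 0.14 (MARS) between experiments, and -0.03 (AARS) to 0.04 (CARS) between treatments.

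The proteins that work with the synthetases were read from a list of scaffold and charging partners. By treatment 0 of 12 tested passed the unadjusted threshold of limma, against 2.20% of all tested probes. Between experiments 2 of 12 passed, both higher in experiment 2, against 5.42% of all tested probes called higher. Above 0 lay 12 of 12, against 47.6% of all tested probes, with a median of 0.088. EEF1E1, a scaffold protein of the complex, had 11.76 and 11.76 in experiment 1 and 11.98 and 12.02 in experiment 2. QRSL1, a subunit of the amidotransferase that completes mitochondrial glutaminyl-tRNA, had 7.99 and 7.94 against 8.20 and 8.23. The other scaffold proteins, AIMP1 and AIMP2, differed by 0.01 and 0.07. Of the translation factors of the cytosol (elongation factors and EIF5A) 0 of 7 passed by treatment, against 2.20% of all tested probes. Of those of the mitochondrion (elongation, initiation, release and recycling factors) 0 of 8 passed. Between experiments EEF1A2, the tissue-restricted form of the cytosolic factor, fell by 1.18 on the log2 scale (SE 0.094, adjusted p = 0.215 in limma). The other 6 cytosolic factors did not pass, and 0 of 8 mitochondrial factors passed, against 13.6% of all tested probes. The medians of the cytosolic and mitochondrial factors were -0.035 and 0.005.

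The amino acid response holds ATF4 and genes that it is known to induce. By treatment 0 of 25 tested passed in limma, against 2.20% of all tested probes, and the median was 0.005. Between experiments 7 of 25 passed as higher in experiment 2, against 5.42% of all tested probes, and 1 as lower, at the unadjusted threshold, and 15 of 25 lay above 0, against 47.6% of all, with a median of 0.045. The largest rise was that of NUPR1, a stress-induced nuclear protein, with 6.74 and 7.08 in experiment 1 and 8.03 and 8.06 in experiment 2. SLC7A11, the cystine transporter, rose by 0.68 (SE 0.11), and SLC3A2, the heavy chain it shares with SLC7A5, by 0.36 (SE 0.076). SLC7A5, a transporter of large neutral amino acids, rose by 0.34 (SE 0.11). PHGDH and PSAT1, which act in serine synthesis, rose by 0.47 (SE 0.068) and 0.39 (SE 0.086), and CHAC1, which degrades glutathione, by 0.23 (SE 0.08). VLDLR, a lipoprotein receptor, fell by 0.27 on the log2 scale. None of these 8 passed after adjustment, with an adjusted p from 0.218 for NUPR1 to 0.364 for CHAC1 in limma.

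The other 17 members of that list did not pass. ATF4 itself had 15.96 and 15.90 in experiment 1 and 16.03 and 16.09 in experiment 2, a difference of 0.13 (SE 0.072) that did not pass, and ASNS, the asparagine synthetase, differed by 0.07 (SE 0.075). TRIB3 and DDIT3, stress targets of ATF4, had -0.13 (SE 0.075) and -0.19 (SE 0.088). XPOT, the exporter of tRNAs from the nucleus, differed by 0.05 (SE 0.067). Of the 10 monocytic markers 3 passed the unadjusted threshold of limma, all lower in experiment 2. Of all tested probes 13.6% passed in either direction. CD68, CSF3R and CSF1R were these 3, with values of -0.29, -0.23 and -0.25 and an adjusted p of 0.316 to 0.336 in limma. The median over the list was -0.15. Of the 7 tested markers of other cell types CD3D passed, with 4.76 and 4.76 in experiment 1 and 5.02 and 4.94 in experiment 2, and the median was 0.017. The part of these markers in the differences of the synthetases was not tested.

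**Figure D4:**
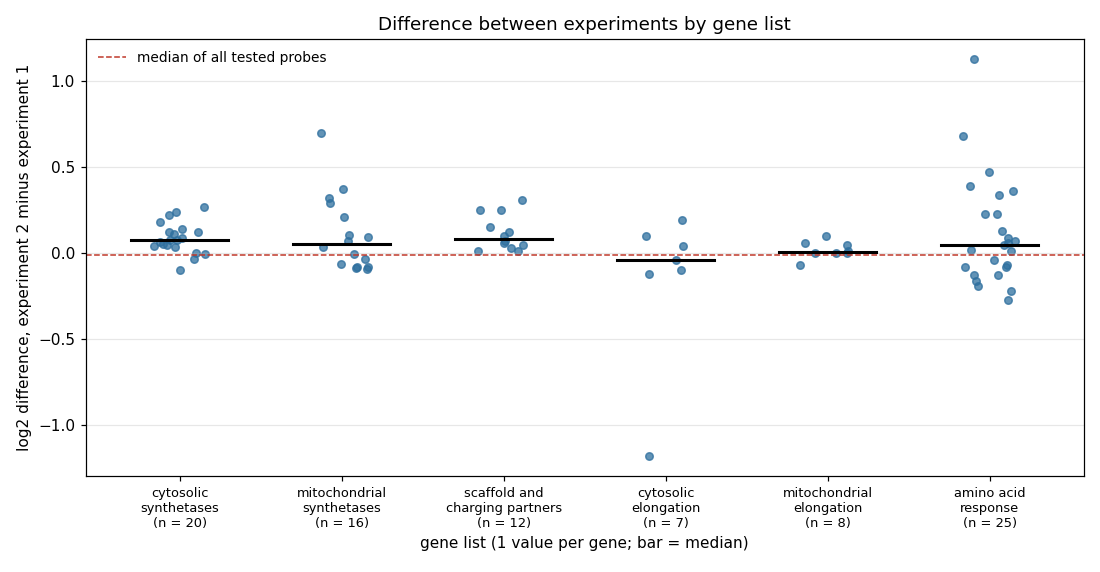
Log2 difference of experiment 2 minus experiment 1 (vertical axis) for each gene of 6 lists (horizontal axis), 1 point per gene with the median as a black bar and the median of all tested probes, -0.009, as a dashed line; points are spread sideways only to be seen. All 12 scaffold and charging partners lie above 0, the amino acid response reaches from -0.27 to 1.13, and EEF1A2 stands alone at -1.18 among the cytosolic elongation factors.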

How the data were processed

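The authors deposited 1 scanner file per array, written by Agilent Feature Extraction (version 10.5.1.1 in the submitters' processing notes, 10.7.3.1 in the file headers), with background-subtracted intensity per spot. A deposited table of quantile-normalized log2 intensities served as an alternative. Probe positions are those of the files (hg19); promoter windows, the miRNA and current names are from RefSeq (GRCh38.p14), to which 39 of 40 synthetase probes matched by accession (18 of 36 genes now have another symbol, such as AARS1 for AARS).

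With R 4.3.3 and limma 3.58.1, log2 intensity of non-control spots was taken, 232 to 301 spots per array marked as outliers were left out, arrays were quantile normalized and spots of a probe averaged. Probes well above background on both arrays of 1 treatment and with a value on all 4 arrays were tested (22638 of 34127, 66.3%). On each array 64.8% to 69.3% of probes exceeded background well, and 0 non-control spots were saturated. lmFit and eBayes, two-sided, compared treatments (miR-511 minus control) and experiments (2 minus 1), with calls at an unadjusted p of 0.05, the first of the study's criteria (the second, over identical replicate probes, was not applied), and Benjamini-Hochberg adjustment over all tested probes. The fits were tested on simulated data.

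The experiment number in the labels pairs the arrays; same-numbered arrays deviated from their treatment means with r = 0.271 over 22638 probes and r = 0.049 over the 40 synthetase probes. Experiments are separate transfections of 1 cell line, and p-values measure only the spread between these arrays.

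A gene is given by its tested probe with the highest mean, and other probes where sign or call differ. Values on every array are given for called members, the 3 largest rises and falls in each comparison, and GARS, KARS, EPRS and WARS; from other lists, counts and called genes are given, and ATF4, ASNS, TRIB3, DDIT3, XPOT, AIMP1 and AIMP2 were named in addition after their values were seen. LYZ and FCGR1A were not analysed here. The members and lists were chosen with earlier results of these data known. Alternatives were normexp background correction (offset 50), scaling to the 75th percentile, other filters on dim probes, marked spots kept and the deposited table. Further ones were an intensity trend, the experiment (or treatment) as a term, the mean over probes of a gene, and leaving out each array. An ordinary t-test on averaged probes, not among the study's criteria, was also used.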

Additional observations from a re-analysis of the deposited data

How the results depend on the processing

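By treatment, 0 of 40 synthetase probes passed the unadjusted threshold of limma with the replicate block (the experiment number, which pairs the arrays, as a term). The same count held with both scalings, normexp, every filter, marked spots kept, the deposited table and an intensity trend. The ordinary t-test gave 1 (YARS2), against 3.13% of all probes. Between experiments, 4 became 9 with an intensity trend, against 14.6% of all probes (EPRS, RARS2, IARS and both MARS probes added). With treatment as a term the count was 1 (MARS2), against 11.6% of all. On all 4 arrays the other alternatives called 4 to 6, against 10.1% to 14.4% of all. EPRS took the place of the dimmer SARS probe under 75th percentile scaling. Under normexp, EPRS and RARS2 took the places of MARS2 and that probe. In some of the fits with 1 array left out the calls changed, in both comparisons. These fits leave 1 array in a group, so no count of calls is given. After adjustment 0 passed under every alternative. The later chosen count of probes with experiment 2 above experiment 1 (23) was 20 with normexp and 26 to 28 without 1 array, where all probes had 33.5% to 37.3%. The mitochondrial median by treatment was -0.005 with normexp, -0.026 with marked spots kept and -0.023 in the deposited table. The cytosolic median between experiments was 0.108 with 75th percentile scaling, 0.08 with normexp, 0.081 with marked spots kept or in the deposited table, and 0.095 as a mean over probes of a gene, and the mitochondrial one was 0.013 with normexp. With 1 array left out, the cytosolic and mitochondrial medians ran from -0.056 to 0.056 and from -0.058 to 0.048 by treatment, and from 0.067 to 0.09 and from 0.022 to 0.058 between experiments. With normexp the sign by treatment turned in AARS2 (-0.02), GARS (0.01), MARS2 (0.0031) and SARS (-0.026), and between experiments in KARS (-0.029). Without 1 array, signs by treatment turned within AARS (-0.12 to 0.055), AARS2 (-0.081 to 0.097), DARS (-0.30 to 0.062), EPRS (-0.33 to 0.041), FARSB (-0.088 to 0.16), GARS (-0.15 to 0.056), HARS2 (-0.11 to 0.03), KARS (-0.022 to 0.041), LARS2 (-0.16 to 0.092), MARS2 (-0.19 to 0.17), RARS2 (-0.42 to 0.17), SARS (-0.035 to 0.057; dimmer probe -0.18 to 0.27), SARS2 (-1.24 to 0.19) and WARS (-0.067 to 0.02), and between experiments within CARS2 (-0.077 to 0.66), EARS2 (-0.17 to 0.042), FARS2 (-0.17 to 0.01), LARS (-0.11 to 0.038) and YARS2 (-0.12 to 0.048). Here the lone array of a group is assumed to vary like the others. Signs of single genes under the alternatives were followed only for the members with values on every array given above, and the other members were not followed. MARS2 had 0.12 between experiments with normexp and did not pass. The causes were not tested. Signs of differences this small are not settled by 4 arrays.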
